A study of Mus musculus with 24 samples.

Results

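TNF superfamily ligands, among them the death ligands, were examined in RNA-seq counts from natural killer (NK) cells sorted out of mouse tumours. The group was chosen by gene symbol, with no cut on a measured value but with earlier results of these data known. It held Fasl, Tnfsf10, Tnf, Lta, Ltb, Tnfsf14, Tnfsf8, Tnfsf11 and Tnfsf12, 9 of the 53465 genes in the deposited table. All 9 were found in it, each as 1 row. The cells came from day 14 subcutaneous flank tumours of B16F10, a mouse melanoma line, in female wild-type B6 mice, and no treatment is named for any group. They were sorted into 4 populations with 6 libraries each: CD27+CD69+, CD27+CD69-, CD11b+CD69+ and CD11b+CD69-. CD27, itself a TNF receptor family member, marks less mature NK cells, CD11b marks mature ones, and CD69 is a surface lectin that is induced soon after activation and holds cells in tissue. Each library was made from 100 cells, so a transcript present in few of them can be missed. The series title names IL-2 and IL-15 signalling and production of FLT3LG as its subject, and no question about TNF family ligands is stated.

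TNF superfamily ligands act as trimers, most are made as type II membrane proteins, and several are released by shedding or secretion. Fas ligand (Fasl) and TRAIL (Tnfsf10) bind death receptors on target cells, whose death domains recruit FADD and caspase-8 and start apoptosis. NK cells use both next to the perforin and granzyme pathway. TNF (Tnf) and lymphotoxin alpha (Lta) signal through the TNF receptors, while lymphotoxin alpha and beta (Ltb) together form a membrane complex that binds the lymphotoxin beta receptor. LIGHT (Tnfsf14) binds HVEM and the lymphotoxin beta receptor, CD30 ligand (Tnfsf8) binds CD30, RANKL (Tnfsf11) binds RANK, and TWEAK (Tnfsf12) binds Fn14.

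Libraries held between 1213914 and 2671533 counts, so that a floor of 3 counts stood for 1.12 to 2.47 counts per 1000000 (CPM). CPM here are scaled for library composition by edgeR's TMM factors. The cell type in the labels is melanoma, whereas all 8 NK cell markers, Ncr1, Klrb1c and Eomes among them, had counts in every population. These 8 markers summed to 11300 to 13020 CPM in CD27+CD69+ libraries, 7004 to 12200 CPM in CD27+CD69-, 15590 to 17530 CPM in CD11b+CD69+ and 19480 to 21020 CPM in CD11b+CD69- libraries. Markers of other cells were not spread evenly, as the plot of marker sums shows. The 11 T cell markers summed to 2155 to 3501, 1054 to 2732, 1148 to 1508 and 872 to 1222 CPM in the same order, and the 6 markers of innate lymphoid cells type 1 (ILC1) to 251 to 604, 323 to 740, 56.5 to 120.1 and 17.4 to 100.5 CPM. Cd3e, a defining T cell marker, averaged 139 ± 45.0, 85.8 ± 42.2, 1.45 ± 2.26 and 0.082 ± 0.201 CPM (SD, n = 6 each), while Cd4 was at 0 counts in the CD27+CD69+ and the CD11b+CD69- libraries. Fibroblast markers lay at 0 to 232 CPM in CD27+CD69+, 258 to 11000 CPM in CD27+CD69-, 0 in all CD11b+CD69+ and 0 to 8.02 CPM in CD11b+CD69- libraries. Replicate 6 of CD27+CD69- had the lowest total of all libraries, 5845 CPM of melanoma markers against at most 244 in any other library, and 237.5 CPM of macrophage markers against at most 54.6 in any other. The neutrophil marker list summed to at most 1.02 CPM in any library.

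**Figure D1:**
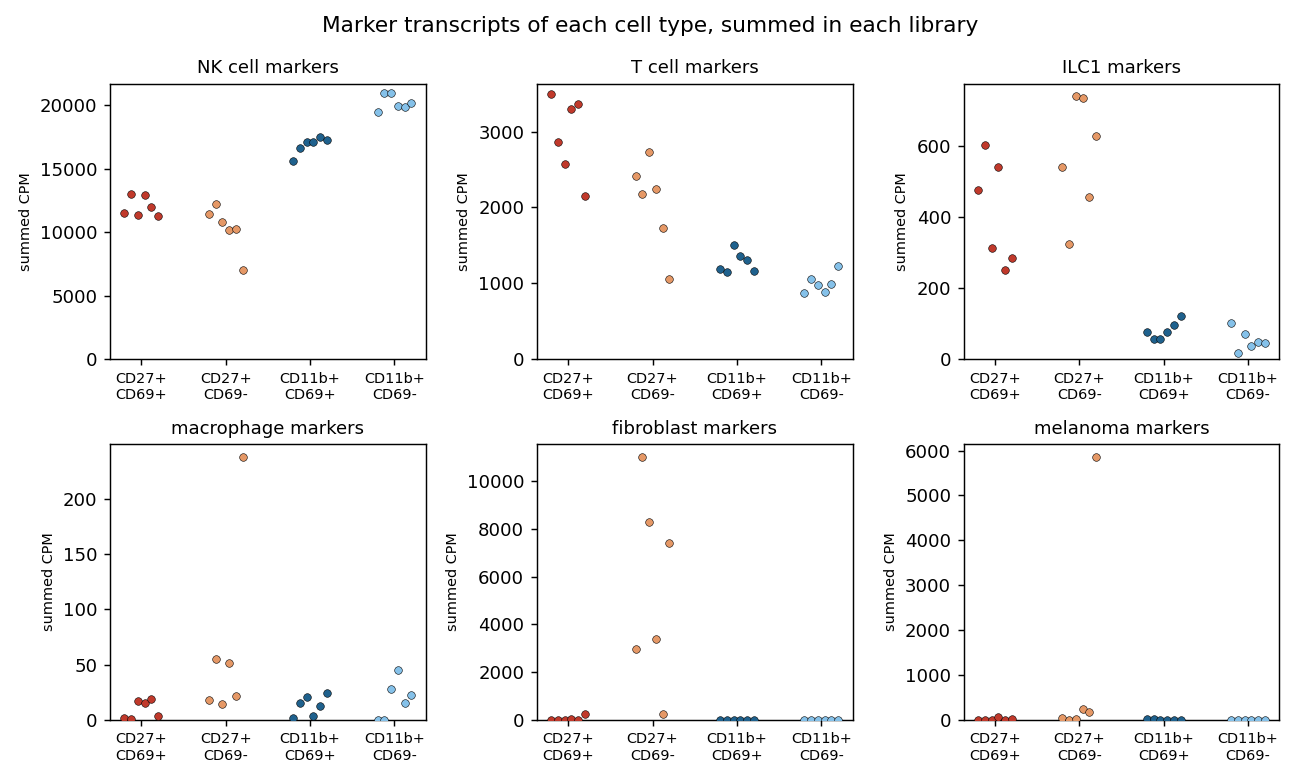
Summed TMM-scaled CPM of the marker genes of 6 cell types (y axis of each panel) in each library (points, replicates 1 to 6 from left to right) of the 4 sorted populations (x axis). NK cell markers were lowest in the CD27+ libraries, T cell and ILC1 markers were highest there on average, and fibroblast markers reached 11000 CPM in CD27+CD69- libraries only.

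Fasl was the most abundant of the ligands in every population, and Ltb came next in all but the CD11b+CD69- libraries. Levels of different genes are compared here as CPM per kb of exon. Over all 24 libraries Fasl averaged 599 CPM per kb and Ltb 96.7, followed by Lta at 13.5, Tnfsf14 at 8.92, Tnf at 6.64, Tnfsf8 at 4.47, Tnfsf10 at 3.72, Tnfsf12 at 1.70 and Tnfsf11 at 0.847. The make-up of the group differed between populations. Fasl supplied 62.3 ± 5.76% of the summed per-kb level of the 9 ligands in CD27+CD69+ libraries, 73.8 ± 8.06% in CD27+CD69-, 88.7 ± 2.48% in CD11b+CD69+ and 96.6 ± 2.45% in CD11b+CD69- libraries (SD, n = 6 each). The share of Ltb was 26.2 ± 5.21%, 21.1 ± 8.03%, 7.45 ± 1.67% and 1.08 ± 0.729% in the same order. The number of the 9 ligands with any count in a library had a median of 9 in CD27+CD69+, 8 in CD27+CD69-, 7.5 in CD11b+CD69+ and 6 in CD11b+CD69- libraries, where it ran from 4 to 6.

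**Figure D2:**
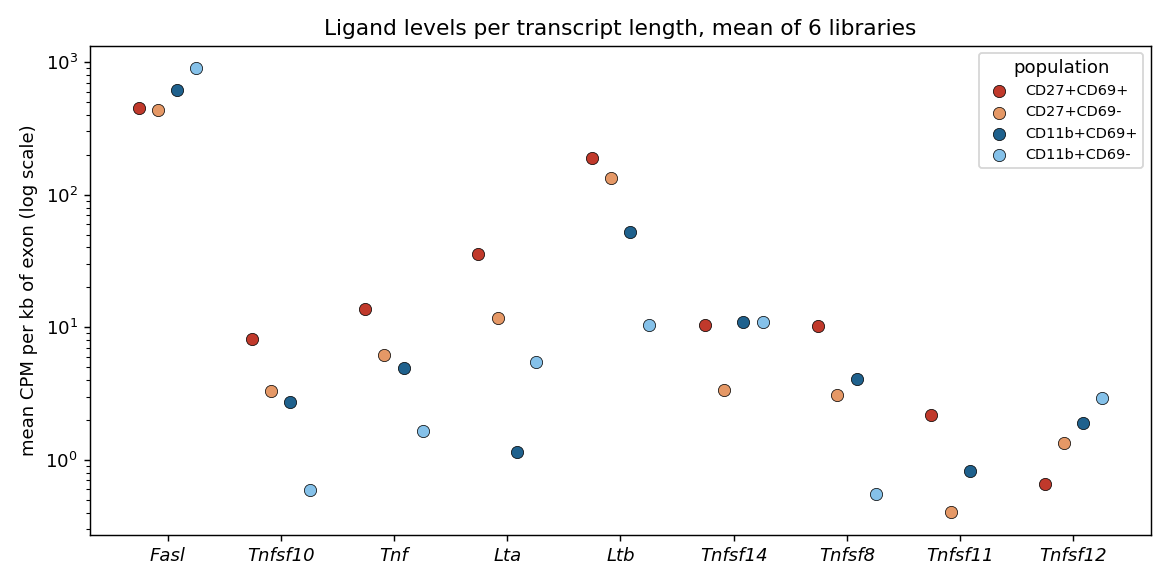
Mean level of each ligand in CPM per kb of exon (y axis, log scale) in the 4 populations (colours; mean of 6 libraries each). Fasl and Ltb stand above the other 7 ligands in the CD27+CD69+, CD27+CD69- and CD11b+CD69+ libraries; Tnfsf11 has no point for CD11b+CD69-, where it had 0 counts.

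The bases upstream of 4 of these genes are given because Fasl and Ltb carried most of the signal and because Ltb, Tnf and Lta lie side by side. They are from RefSeq on GRCm38.p6, written 5′ to 3′ on the gene's own strand, and end at the base before the annotated gene (GENCODE M21). Capitals mark matches on either strand to the motifs GGGANTTTC (NF-kB), TGANTCA (AP-1), TTCNNNGAA (STAT), TGTGGT (RUNX), GGTGTGA (T-box) and GGAAA (the core of NFAT sites).
Fasl, chr1:161788496-161788745, minus strand: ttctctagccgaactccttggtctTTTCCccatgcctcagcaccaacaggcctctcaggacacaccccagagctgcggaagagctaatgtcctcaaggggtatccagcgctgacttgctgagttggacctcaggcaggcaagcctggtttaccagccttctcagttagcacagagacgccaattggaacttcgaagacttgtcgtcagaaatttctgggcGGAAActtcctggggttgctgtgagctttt
Tnf, chr17:35202008-35202257, minus strand: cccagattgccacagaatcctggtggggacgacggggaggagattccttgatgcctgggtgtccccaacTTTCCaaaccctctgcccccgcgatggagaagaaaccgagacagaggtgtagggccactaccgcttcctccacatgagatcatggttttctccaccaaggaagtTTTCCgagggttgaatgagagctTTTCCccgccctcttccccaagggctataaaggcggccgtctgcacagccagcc
Lta, chr17:35205352-35205601, minus strand: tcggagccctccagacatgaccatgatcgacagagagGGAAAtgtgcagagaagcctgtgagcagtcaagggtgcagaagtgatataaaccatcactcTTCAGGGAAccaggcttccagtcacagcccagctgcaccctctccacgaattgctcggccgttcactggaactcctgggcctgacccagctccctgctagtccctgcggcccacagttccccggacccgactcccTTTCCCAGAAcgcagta
Ltb, chr17:35194257-35194438, plus strand: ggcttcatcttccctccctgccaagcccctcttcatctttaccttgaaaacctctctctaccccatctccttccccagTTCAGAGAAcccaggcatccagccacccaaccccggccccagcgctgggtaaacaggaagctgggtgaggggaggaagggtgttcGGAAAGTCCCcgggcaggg
In windows of 300 bases (250 before and 50 after the start), found for 8 of the 9 ligands, Ltb held the NF-kB motif, as GAAAGTCCC on the strand shown, starting at -86 from the RefSeq start. It overlaps the GGAAA match at -87, and the matches share a single run of capitals. The NF-kB motif was present in 1.11% of the 32851 windows of the table. The STAT motif stood in the windows of Lta, at -152 and -16, and of Ltb, against 8.3% of all windows. In Lta the one at -16 overlaps a GGAAA match that starts at -17. GGAAA was present in 8 of 8 ligand windows, against 61.3% of all windows. AP-1 and RUNX motifs were found only in the Tnfsf14 window, against 7.81% and 16.8% of all windows, and the T-box motif in none of the 8, against 3.98%. These matches describe letters in a window and show no binding.

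Fasl was lower in CD27+ than in CD11b+ cells, and among CD11b+ cells it was lower in those with CD69. It is the ligand of the Fas death receptor (ENSMUSG00000000817, chromosome 1, 161780689 to 161788495, minus strand; coordinates of all genes are on GRCm38). Its level, given as lowest, median and highest of 6 libraries, was 736, 828.5 and 1018 CPM in CD27+CD69+, 599, 810.4 and 1135 in CD27+CD69-, 1079, 1190.2 and 1300.0 in CD11b+CD69+ and 1513, 1758 and 1940.5 in CD11b+CD69- libraries. The CD11b+CD69- libraries thus lay above all the others, and the 2 CD27+ populations overlapped.

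Among CD11b+ cells Fasl fell with CD69 to 1193 ± 71.6 CPM, against 1745 ± 164 CPM without it (SD, n = 6 each), a log2 difference of -0.55 (SE 0.12, edgeR adjusted p = 0.00844), with 6 of 6 CD69+ libraries below the CD69- median. In a bulk library fewer cells with a transcript and less transcript per cell cannot be told apart. Among CD27+ cells the means were 866 ± 121 CPM with CD69 and 838 ± 204 CPM without (log2 difference 0.05, 95% interval -0.20 to 0.29, edgeR adjusted p = 0.966). The difference between these CD69 differences was 0.59 (SE 0.17) and did not pass (edgeR adjusted p = 0.122). Against CD11b+ libraries, CD27+ libraries differed by -1.06 on the log2 scale (SE 0.12, edgeR adjusted p = 6.516e-07) without CD69 and by -0.46 (SE 0.12, edgeR adjusted p = 0.0415) with it, with 6 of 6 libraries below the CD11b+ median each time. Leaving out a replicate number removes 1 library from each population. The second of these differences did not pass without replicate 1, 3, 4 or 5, where it was -0.45, -0.39, -0.46 and -0.46 with edgeR adjusted p = 0.122, 0.177, 0.133 and 0.169. The order of levels was thus CD11b+CD69-, CD11b+CD69+, then both CD27+ populations, which were not told apart. The sum of the NK cell markers was in the same order over the populations, and its part in the Fasl differences was not tested. Without replicate 6 of CD27+CD69- the difference among CD69- cells was -0.98 (edgeR adjusted p = 9.68e-07), with that population held by replicate 5 alone it was -0.93 (edgeR adjusted p = 0.00263), and with the fibroblast and melanoma marker sums as covariates it was -0.97 and did not pass (edgeR adjusted p = 0.0817).

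Tnfsf10, the gene of TRAIL, had its highest levels in CD27+CD69+ cells and its lowest in CD11b+CD69- cells. It lies on the plus strand of chromosome 3 (ENSMUSG00000039304, 27317028 to 27342427). Lowest, median and highest levels were 30.8, 41.2 and 62.5 CPM in CD27+CD69+, 4.25, 18.6 and 33.4 in CD27+CD69-, 1.66, 15.4 and 26.0 in CD11b+CD69+ and 0, 2.36 and 9.02 in CD11b+CD69- libraries. Every CD27+CD69+ library lay above every CD11b+ library, and 2 of the 6 CD11b+CD69- libraries had 0 counts. CD27+CD69+ cells had 43.3 ± 12.5 CPM, against 3.11 ± 3.47 CPM in CD11b+CD69- cells, a log2 difference of 3.77 (SE 0.71, edgeR adjusted p = 0.000551). Among CD69- cells Tnfsf10 rose in CD27+ libraries, to 17.5 ± 10.3 CPM, against the same 3.11 ± 3.47 CPM in CD11b+ ones. All 6 CD27+ libraries lay above the CD11b+ median, and the ranges overlapped. The difference was 2.47 on the log2 scale (SE 0.69, edgeR adjusted p = 0.0158). That call was lost without replicate 4 (2.46, edgeR adjusted p = 0.0517) or replicate 5 (2.34, edgeR adjusted p = 0.0641), and when only the CD69- populations were fitted (2.47, edgeR adjusted p = 0.101). It was also lost with the macrophage marker sum as covariate (2.26, edgeR adjusted p = 0.0595) and with the fibroblast and melanoma marker sums (3.02, edgeR adjusted p = 0.778). Without replicate 6 of CD27+CD69- it was 2.41 (edgeR adjusted p = 0.0298), and with that population held by replicate 5 alone, its library with the lowest fibroblast marker sum, it was 3.41 and did not pass (edgeR adjusted p = 0.0758). Among CD69+ cells the CD27+ minus CD11b+ difference was 1.59 (SE 0.64) and did not pass (edgeR adjusted p = 0.281), although the ranges did not overlap. The CD69 differences were 1.30 (SE 0.63) in CD27+ and 2.18 (SE 0.68) in CD11b+ cells with edgeR adjusted p = 0.456 and 0.0857, and the second passed with DESeq2 (2.21, adjusted p = 0.0168). No pair of neighbours in its order of levels passed. T cell and ILC1 marker sums were also higher on average in CD27+ libraries, and their part in the Tnfsf10 differences was not tested.

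Ltb, which anchors lymphotoxin alpha to the membrane, was higher in CD27+ than in CD11b+ cells, and among CD11b+ cells it was higher in those with CD69. Ltb and Fasl were the 2 ligands with counts in all 24 libraries. Ltb (ENSMUSG00000024399, chromosome 17, 35194439 to 35196320, plus strand) had a lowest, median and highest level of 192, 273 and 448 CPM in CD27+CD69+, 76.7, 167 and 457 in CD27+CD69-, 51.0, 80.1 and 108 in CD11b+CD69+ and 2.46, 13.8 and 31.6 in CD11b+CD69- libraries. CD11b+CD69- libraries lay below all others, and the highest CD27+CD69- library, replicate 1, lay above the rest of its group by more than the other 5 spanned. Among CD11b+ cells Ltb rose with CD69 to 78.7 ± 20.2 CPM, against 15.8 ± 11.7 CPM without it (SD, n = 6 each), by 2.30 on the log2 scale (SE 0.41, edgeR adjusted p = 0.00118, 6 of 6 libraries higher). Among CD27+ cells it had 288 ± 87.8 CPM with CD69 and 204 ± 134 CPM without (log2 difference 0.49, 95% interval -0.26 to 1.25, edgeR adjusted p = 0.761). The difference between the CD69 differences was -1.81 (SE 0.55, edgeR adjusted p = 0.156) and passed with DESeq2 (-1.84, adjusted p = 0.0422). CD27+ libraries were higher than CD11b+ ones by 1.87 (SE 0.38, edgeR adjusted p = 0.00497) with CD69 and by 3.68 (SE 0.43, edgeR adjusted p = 6.718e-07) without it, each in 6 of 6 libraries and without overlap.

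These 3 calls of Ltb held in all 17 alternative settings, with log2 differences from 2.13 to 2.64 for CD69 in CD11b+ cells, from 1.71 to 2.04 for CD27+ with CD69 and from 3.14 to 4.58 for CD27+ without it. Without replicate 6 of CD27+CD69- the last was 3.85 (edgeR adjusted p = 2.63e-07), and with fibroblast and melanoma marker covariates 4.58 (edgeR adjusted p = 0.0226). In its order of levels CD27+CD69+ and CD27+CD69- were not told apart. CD27+CD69- exceeded CD11b+CD69+ by 1.38 (SE 0.38, edgeR adjusted p = 0.0236). That call was lost without replicate 1, 2 or 4 (0.97, 1.36 and 1.52, edgeR adjusted p = 0.161, 0.0614 and 0.0524). It was also lost with no filter on low counts, with the fibroblast and melanoma marker covariates and with CD27+CD69- held by replicate 5 alone. T cell and ILC1 markers were also highest on average in the CD27+ libraries, and their part in the CD27+ differences of Ltb was not tested. Within CD11b+ cells, where Ltb rose with CD69, the T cell markers summed to 1148 to 1508 CPM in CD69+ and 872 to 1222 CPM in CD69- libraries. The marker Trbc1 made up most of both sums, averaging 1012 and 807 CPM, while Cd3e averaged 1.45 and 0.082 CPM. Cd3g averaged 39.3 CPM (6 of 6 libraries with counts) and 3.20 CPM (1 of 6). The part of the T cell markers there was not tested either.

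**Figure D3:**
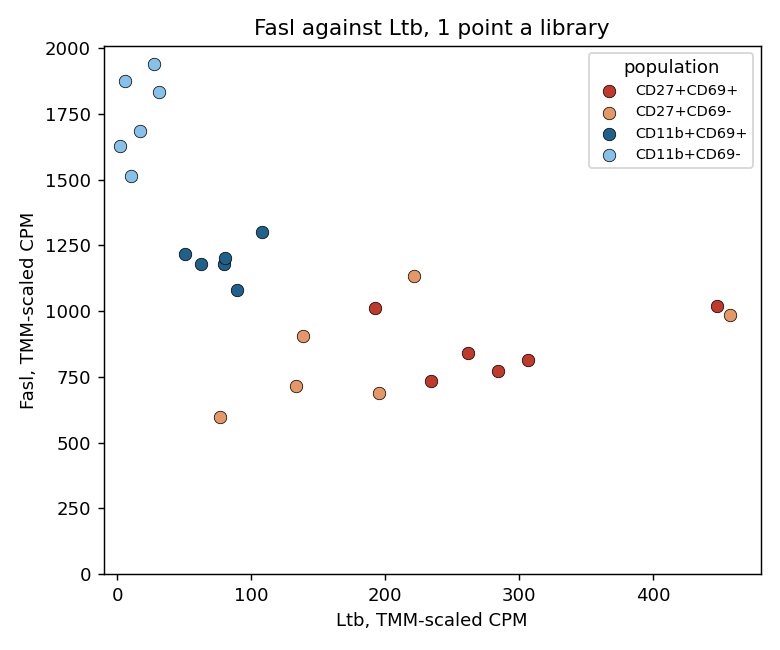
TMM-scaled CPM of Fasl (y axis) against that of Ltb (x axis), 1 point a library, coloured by population. CD11b+CD69- libraries sit at the upper left, with Fasl of 1513 CPM or more and Ltb of 31.6 CPM or less, and CD27+CD69+ libraries lie to the right of all CD11b+ libraries.

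Fasl and Ltb thus ran in opposite directions across populations, as the plot of Fasl against Ltb shows. The ratio of Fasl to Ltb per kb had a median of 2.29 in CD27+CD69+, 4.10 in CD27+CD69-, 11.6 in CD11b+CD69+ and 94.5 in CD11b+CD69- libraries. Its lowest value in CD11b+CD69-, 45.4, was above its highest in any of the other populations, 18.7 in CD11b+CD69+. Over the 24 libraries Pearson's r between the 2 genes was -0.740 on log2 CPM, and 0.437 after each population's mean was removed, so the opposition lay between populations and not among replicate libraries. These libraries share their sort, and r is given as a description.

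Tnf and Lta are the neighbours of Ltb, on the minus strand of chromosome 17. Tnf (ENSMUSG00000024401, 35199381 to 35202007) lies 3060 bases beyond Ltb, Lta (ENSMUSG00000024402, 35203165 to 35205351) a further 1157 bases on, and all 3 lie within 10913 bases. Tnf encodes the inflammatory cytokine TNF and had a lowest, median and highest level of 12.7, 22.1 and 38.3 CPM in CD27+CD69+, 2.36, 10.3 and 17.7 in CD27+CD69-, 0, 8.41 and 15.0 in CD11b+CD69+ and 0, 2.48 and 6.23 in CD11b+CD69- libraries. CD27+CD69+ libraries lay above all CD11b+CD69- libraries, 3 of which had 0 counts, and the other populations overlapped. Tnf was higher in CD27+CD69+ than in CD11b+CD69- cells, with 22.5 ± 9.83 against 2.7 ± 2.99 CPM, by 3.03 on the log2 scale (SE 0.90, edgeR adjusted p = 0.0270). This did not hold without replicate 1, 2, 4 or 6, where the difference was 3.07, 2.81, 3.41 and 2.73 with edgeR adjusted p = 0.0763, 0.0864, 0.0518 and 0.0835. None of the 4 comparisons that change 1 marker at a time passed for Tnf, with log2 differences from 1.14 to 1.88 and edgeR adjusted p from 0.185 to 0.753. Macrophages are a known source of Tnf. The library with the highest macrophage marker sum, CD27+CD69- replicate 6 at 237.5 CPM, had 9.07 CPM of Tnf, and the part of such cells in the Tnf levels was not tested.

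Lta, whose product forms either a soluble trimer or the complex with lymphotoxin beta, was found in all 12 CD27+ libraries and in 3 of the 12 CD11b+ libraries. Lowest, median and highest levels were 14.9, 49.6 and 81.2 CPM in CD27+CD69+ and 4.95, 18.5 and 26.5 CPM in CD27+CD69- libraries. In CD11b+CD69+ libraries Lta had 19 counts in replicate 4, 1 count in replicate 3 and 0 in the other 4, and in CD11b+CD69- libraries 102 counts in replicate 3 and 0 in the other 5. The 6 CD27+CD69+ libraries lay above all 6 CD11b+CD69+ ones, while the single CD11b+CD69- library, at 45.4 CPM, fell inside the CD27+CD69+ range. Lta differed among the 4 populations (edgeR adjusted p = 0.0355). The CD27+ minus CD11b+ difference among CD69+ cells, 4.92 (SE 1.33), missed the threshold (edgeR adjusted p = 0.0522), with 49.2 ± 21.0 against 1.60 ± 3.69 CPM. It passed without replicate 3 (edgeR adjusted p = 0.0448), when only the CD69+ populations were fitted (edgeR adjusted p = 0.00465) and by limma-voom (adjusted p = 0.000865). It also passed with fibroblast and melanoma marker sums as covariates (edgeR adjusted p = 0.0453). Without replicate 4, which holds 19 of the 20 CD11b+CD69+ counts, it passed as well (edgeR adjusted p = 0.00950), against a population left with 1 count. It did not pass with DESeq2, median-of-ratios scaling, no filter, the 10 CPM filter or the macrophage marker covariate. Leaving out replicate 1, 2, 5 or 6 did not bring it past the threshold either. Among CD69- cells the difference was 1.09 (SE 1.13, edgeR adjusted p = 0.632), and for CD27+CD69+ minus CD11b+CD69- it was 2.69 (edgeR adjusted p = 0.151). Both turned on CD11b+CD69- replicate 3. Leaving out replicate 3 puts CD11b+CD69- at 0 counts by construction, and the calls made then (edgeR adjusted p = 0.00221 and 0.000518) show only that dependence. The CD69 difference of Lta in CD11b+ cells, -2.23 (edgeR adjusted p = 0.465), had the opposite sign without replicate 3. T cell markers were higher on average in the CD27+ libraries as well, and their part in the Lta counts was not tested.

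**Figure D4:**
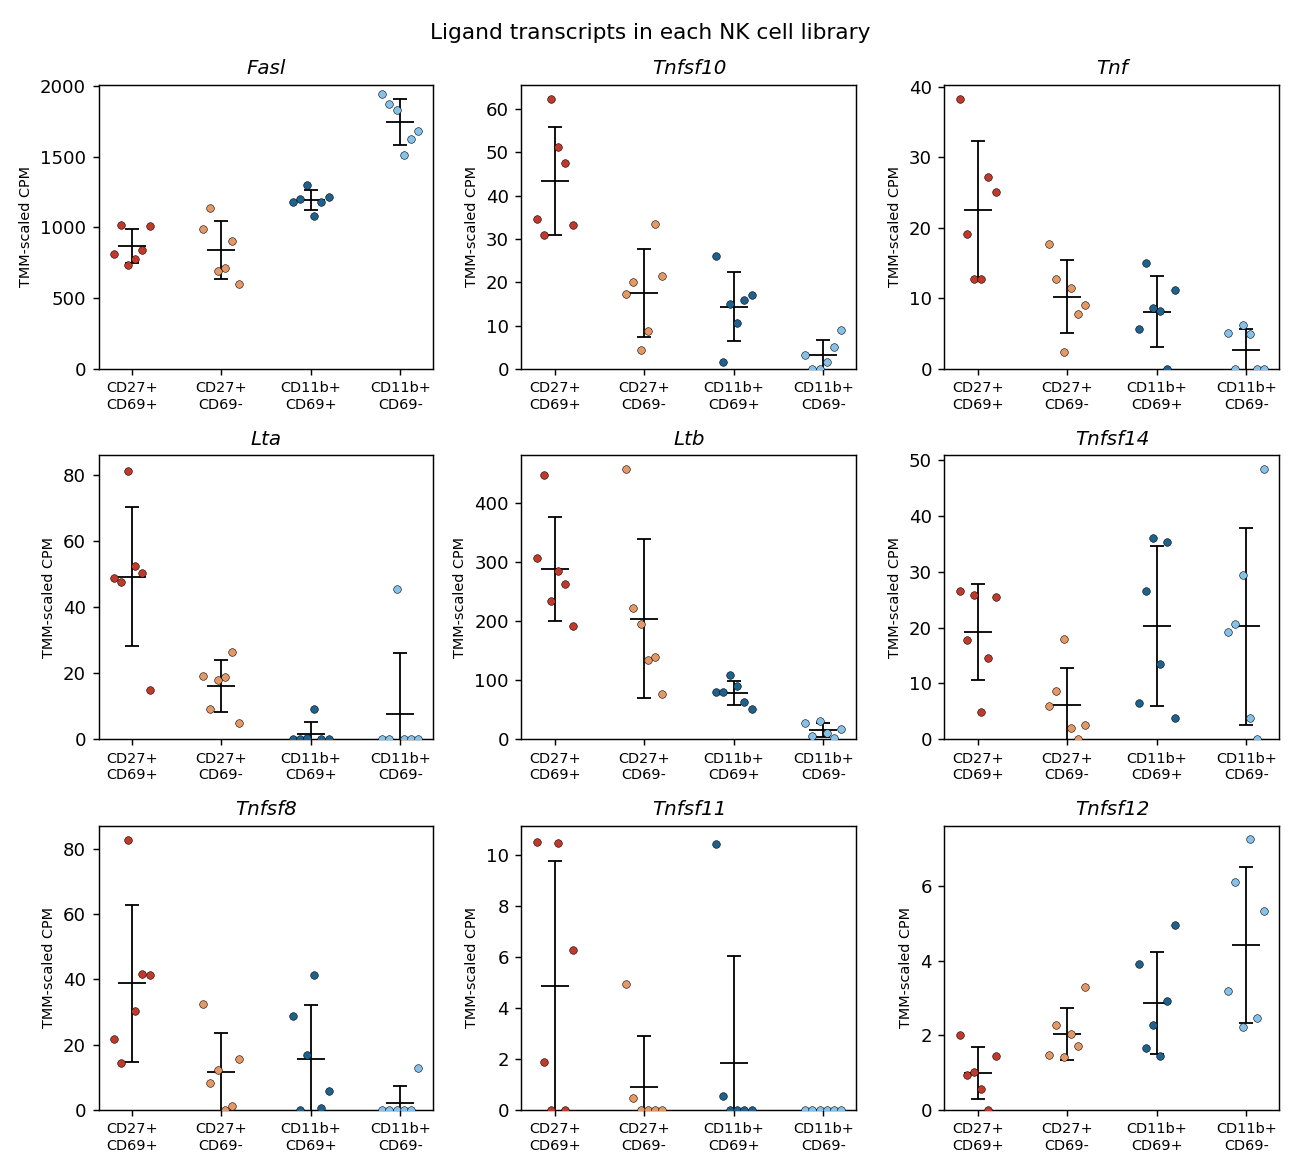
TMM-scaled CPM of each of the 9 ligands (y axis, from 0, own scale per panel) in every library (points, replicates 1 to 6 from left to right) of the 4 populations (x axis), with mean and SD of 6 libraries. Fasl is highest in CD11b+CD69-, Ltb and Tnfsf10 are highest on average in CD27+CD69+, and Lta has 1 CD11b+CD69- library at 45.4 CPM with the other 5 at 0.

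Tnfsf8, the ligand of CD30, was present in all 6 CD27+CD69+ libraries and in 1 of 6 CD11b+CD69- libraries. It lies on the minus strand of chromosome 4 (ENSMUSG00000028362, 63831308 to 63861347). Lowest, median and highest levels were 14.5, 35.9 and 82.8 CPM in CD27+CD69+, 0, 10.2 and 32.5 in CD27+CD69- and 0, 11.3 and 41.3 in CD11b+CD69+ libraries, while in CD11b+CD69- replicate 6 had 31 counts (12.7 CPM) and the other 5 had 0. CD27+CD69+ libraries lay above all CD11b+CD69- libraries, and the other pairs overlapped. The CD27+CD69+ minus CD11b+CD69- difference was 4.12 (SE 1.22, edgeR adjusted p = 0.0264), and leaving out any 1 of replicates 1 to 5 lost the call (3.51 to 4.04, edgeR adjusted p from 0.0525 to 0.122). The call was also lost with no filter on low counts. The 4 comparisons that change 1 marker at a time gave log2 differences from 1.32 to 2.81 and edgeR adjusted p from 0.212 to 0.7595. Leaving out replicate 6, the only CD11b+CD69- library with counts, puts that population at 0 by construction. The calls made then, for CD69 in CD11b+ cells and for CD27+ without CD69 (edgeR adjusted p = 0.0162 and 0.0112), show only that they turn on that library.

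Tnfsf14, the gene of LIGHT, showed no difference that passed. It lies on chromosome 17, far from the Ltb locus (ENSMUSG00000005824, 57189492 to 57194177, minus strand). Lowest, median and highest levels were 4.96, 21.6 and 26.6 CPM in CD27+CD69+, 0, 4.19 and 18.0 in CD27+CD69-, 3.73, 20.0 and 36.0 in CD11b+CD69+ and 0, 19.9 and 48.4 in CD11b+CD69- libraries, and all populations overlapped. The CD69 difference was 1.61 in CD27+ cells (95% interval -0.09 to 3.32, edgeR adjusted p = 0.505) and 0.00 in CD11b+ cells (95% interval -1.65 to 1.65, edgeR adjusted p = 1). CD27+ differed from CD11b+ libraries by -0.07 with CD69 (95% interval -1.71 to 1.56, edgeR adjusted p = 0.992) and by -1.69 without it (95% interval -3.39 to 0.02, edgeR adjusted p = 0.218). These intervals reach beyond a 2-fold change on at least 1 side, so the data do not show equal levels.

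Tnfsf11 and Tnfsf12 were too low for the filter on low counts and were not tested with the others. Tnfsf11, the gene of RANKL (ENSMUSG00000022015, chromosome 14, 78277445 to 78308043, minus strand), had 62 counts over 4 of the 6 CD27+CD69+ libraries, 11 over 2 CD27+CD69- libraries, 25 over 2 CD11b+CD69+ libraries and 0 in all CD11b+CD69- libraries. With counts pooled over each group, the CD27+CD69+ level was 23.3-fold that of a floor of 3 counts in CD11b+CD69-. This value covers counting error only and leaves out the spread between libraries. With no filter on low counts the difference between these 2 populations did not pass (edgeR adjusted p = 0.0564). Tnfsf12, the gene of TWEAK (ENSMUSG00000097328, chromosome 11, 69686250 to 69695849, minus strand), had 13, 22, 39 and 62 counts in CD27+CD69+, CD27+CD69-, CD11b+CD69+ and CD11b+CD69- libraries, with at most 19 in any library. With no filter its CD27+CD69+ minus CD11b+CD69- difference was -2.09 (SE 1.02, edgeR adjusted p = 0.247). Of its 1515 exon bases 731 (48.3%) are shared with Tnfsfm13 on the same strand, so that reads there cannot be assigned with certainty.

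Across the comparisons Fasl was lower and Ltb higher toward CD27+ cells, while CD69 within CD27+ cells gave no call. Counts are out of the 7 ligands tested, at an edgeR adjusted p under 0.05 over all 10536 genes. Among CD11b+ cells CD69+ minus CD69- called 2 ligands, Ltb up and Fasl down, where 2.74% of all genes were called, and the median over the 7 ligands was 1.55 against 0 over all genes (log2). Among CD27+ cells the same contrast called 0 ligands, 0 at an unadjusted p under 0.05 and 0 with DESeq2 or limma-voom, where 1.85% of all genes were called, and the ligand median was 1.30 against -0.01. CD27+ minus CD11b+ called 2 ligands with CD69, Ltb up and Fasl down, where 1.9% of all genes were called (median 1.47 against 0.02). Without CD69 it called 3, Ltb and Tnfsf10 up and Fasl down, where 12.4% of all genes were called (median 1.88 against 0.05). A median over 7 ligands is the value of 1 gene. It was Tnfsf10 for CD69 in CD27+ cells (edgeR adjusted p = 0.456). In the other comparisons of this paragraph it was Tnf, in the order given with edgeR adjusted p = 0.459, 0.566 and 0.185. The medians thus show no rise of the ligands as a group.

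CD27+CD69+ minus CD11b+CD69- called 5 ligands, with Ltb, Tnfsf10, Tnfsf8 and Tnf up and Fasl down, where 11% of all genes were called (median 3.03 against 0.02). CD27+CD69- minus CD11b+CD69+ called Ltb up and Fasl down, where 6.19% of all genes were called. The Fasl difference there was -0.51 (SE 0.12, edgeR adjusted p = 0.00799). It was lost without replicate 3 (-0.43, edgeR adjusted p = 0.0635) and with the macrophage marker covariate (-0.42, edgeR adjusted p = 0.0518). With the fibroblast and melanoma marker covariates it was -0.47 and did not pass, and with CD27+CD69- held by replicate 5 alone it was -0.39. For any difference among the 4 populations, 4 of 7 ligands (Fasl, Tnfsf10, Lta and Ltb) were called, where 14.1% of all genes were. The difference between the CD69 differences called 0 ligands with edgeR, where 0.579% of all genes were called, 3 at an unadjusted p under 0.05 (Fasl, Ltb and Lta), 1 with DESeq2 and 0 with limma-voom. These comparisons share populations and are not independent of each other.

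**Figure D5:**
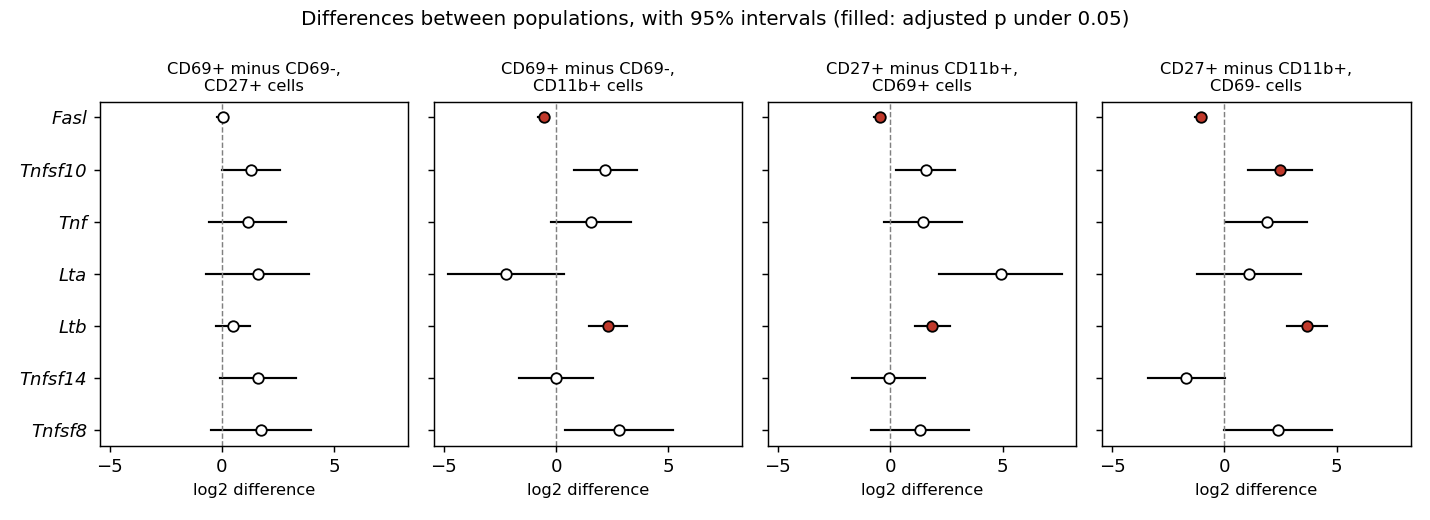
Log2 difference (x axis) of the 7 tested ligands (y axis) in 4 comparisons (panels), from the edgeR fit; points are estimates, lines their 95% intervals, and filled points had an adjusted p under 0.05. Ltb is filled in 3 panels to the right of 0 and Fasl in the same 3 panels to the left, and no point is filled for CD69 in CD27+ cells.

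Of 9 other ligands of the superfamily, 2 were abundant enough to test, Tnfsf9 and Tnfsf4, and Tnfsf15 had 0 counts in every library. Tnfsf9, the gene of the 4-1BB ligand, had 16.8 ± 9.07 CPM in CD27+CD69+, 23.5 ± 22.0 in CD27+CD69-, 19.9 ± 16.1 in CD11b+CD69+ and 1.02 ± 1.97 in CD11b+CD69- libraries, with counts in 2 of 6 of the last and in all the others. It rose, as 1 of 2 tested, with CD69 in CD11b+ cells (2.74% of all genes called) by 4.24 (SE 1.03, edgeR adjusted p = 0.0200) and in CD27+ over CD11b+ cells without CD69 (12.4% called) by 4.48 (SE 1.04, edgeR adjusted p = 0.00373). The first was lost without replicate 2, 3, 4 or 6 (edgeR adjusted p from 0.0565 to 0.116), with limma-voom (4.31, adjusted p = 0.112) and when only the CD11b+ populations were fitted (4.23, edgeR adjusted p = 0.0693). The second was lost with fibroblast and melanoma marker sums as covariates (4.21, edgeR adjusted p = 0.707). In the other 2 comparisons that change 1 marker edgeR called 0 of 2, as did DESeq2 and limma-voom, and 0 had an unadjusted p under 0.05. Tnfsf4, the gene of the OX40 ligand, averaged 11.0 ± 17.2, 1.70 ± 2.26, 11.4 ± 12.6 and 6.43 ± 9.41 CPM in the same order of populations. Among those too low to test, Cd40lg had 74 counts over the CD27+CD69+ libraries, 81 counts over the CD27+CD69- ones and 0 in both CD11b+ populations, while Cd70, the gene of the CD27 ligand, had 1 count in CD27+CD69+, 102 counts in 3 CD11b+CD69+ libraries and 0 in the other 2 populations.

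Among 12 receptors of the 9 ligands, 8 were tested. In CD27+ cells 1 of 8 fell with CD69, where 1.85% of all genes were called: Tnfrsf1a, the death domain receptor of TNF, to 34.1 ± 11.7 against 78.3 ± 20.0 CPM, by a log2 difference of -1.20 (SE 0.25, edgeR adjusted p = 0.00793). That call was lost without replicate 3 or 4 (-1.17 and -1.10, edgeR adjusted p = 0.05 and 0.068) and with fibroblast and melanoma marker sums as covariates (-1.14, edgeR adjusted p = 0.999). It was also lost with the macrophage marker covariate and with CD27+CD69- held by replicate 5 alone. Among CD69- cells 2 of 8 rose in CD27+ libraries, where 12.4% of all genes were called: Ltbr, the lymphotoxin beta receptor, with 145 counts against 0, and Tnfrsf11b, the RANKL decoy receptor osteoprotegerin, with 450 counts against 0 (edgeR adjusted p = 0.00116 and 0.00330). With the fibroblast and melanoma marker covariates neither passed, at 6.09 for Ltbr, against 7.78 without them, and 0.43 for Tnfrsf11b, against 9.77 (edgeR adjusted p = 0.573 and 0.996). These fitted differences are against a population at 0 counts and depend on the prior count. Both calls were also lost with CD27+CD69- held by replicate 5 alone. Fibroblast markers reached 11000 CPM in the CD27+CD69- libraries, and their part in both was not tested. In the other 2 comparisons edgeR called 0 of 8 receptors: for CD69 in CD11b+ cells 0 had an unadjusted p under 0.05 and 0 were called by DESeq2 or limma-voom, and for CD27+ with CD69 the numbers were 3 by unadjusted p, 1 by DESeq2 and 0 by limma-voom. Fas itself had 37.5 ± 11.7 CPM in CD27+CD69+, 28.3 ± 29.8 in CD27+CD69-, 39.6 ± 19.4 in CD11b+CD69+ and 15.4 ± 13.6 CPM in CD11b+CD69- libraries, and Tnfrsf10b, the mouse TRAIL receptor, was at 4.01 ± 3.45, 2.50 ± 1.86, 0 and 0.297 ± 0.726 CPM.

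All 16 genes of death receptor and TNF receptor signalling were tested. With CD69 in CD11b+ cells 2 of 16 rose, where 2.74% of all genes were called, the adaptors Traf1, by 0.85 (SE 0.18, edgeR adjusted p = 0.00502), and Traf2, by 0.74 (SE 0.19, edgeR adjusted p = 0.0246), and the Traf2 call was lost without any 1 of replicates 1 to 5 (0.66 to 0.76). Traf1 passed in all 17 alternative settings. In CD27+ over CD11b+ cells without CD69, 2 of 16 fell, where 12.4% of all genes were called: Sharpin, a subunit of the linear ubiquitin ligase LUBAC, at -0.64 (SE 0.18, edgeR adjusted p = 0.0182), and Tnfaip3, which encodes the NF-kB inhibitor A20, at -0.50 (SE 0.16, edgeR adjusted p = 0.0323). Both depended on which replicates were kept, Sharpin being lost without replicate 2, 3 or 6 and Tnfaip3 without replicate 1, 3, 5 or 6 (edgeR adjusted p from 0.0548 to 0.179), and both were lost with either set of marker covariates. Both were also lost with CD27+CD69- held by replicate 5 alone. Sharpin was lost when only the CD69- populations were fitted, and Tnfaip3 without replicate 6 of CD27+CD69-. In the other 2 comparisons edgeR called 0 of 16: for CD69 in CD27+ cells 3 had an unadjusted p under 0.05, 1 was called by DESeq2 and 0 by limma-voom, and for CD27+ with CD69 the numbers were 1, 0 and 0.

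The 11 genes of ligand shedding and mRNA decay were all tested. Zfp36, which encodes tristetraprolin, a protein that binds AU-rich elements such as those of Tnf mRNA and promotes its decay, fell with CD69 in CD11b+ cells, to 316 ± 45.0 against 594 ± 56.1 CPM, by -0.91 (SE 0.17, edgeR adjusted p = 0.00162). It also fell in CD27+ against CD11b+ cells without CD69, to 357 ± 108 against 594 ± 56.1 CPM, by -0.73 (SE 0.17, edgeR adjusted p = 0.00357), together with its relative Zfp36l2, at -0.72 (SE 0.16, edgeR adjusted p = 0.00248). With fibroblast and melanoma marker sums as covariates neither passed in that comparison (-0.90 for Zfp36 and -0.49 for Zfp36l2, edgeR adjusted p = 0.596 and 0.979). Neither passed there with CD27+CD69- held by replicate 5 alone. Adam17, the protease that sheds TNF, passed in none of the 4 comparisons that change 1 marker. It was lower in CD27+CD69+ than in CD11b+CD69- cells, with 48.4 ± 23.2 against 115.6 ± 39.5 CPM, by a log2 difference of -1.26 (SE 0.35, edgeR adjusted p = 0.0175). In that comparison 3 of 11 were down, where 11% of all genes were called. The others were Zfp36 at -1.20 (SE 0.17, edgeR adjusted p = 1.27e-05) and Zfp36l2 at -0.76 (SE 0.16, edgeR adjusted p = 0.00164). The counts were 1 of 11 down for CD69 in CD11b+ cells, where 2.74% of all genes were called, 2 of 11 down for CD27+ without CD69, where 12.4% were, and 0 of 11 by edgeR for CD69 in CD27+ cells and for CD27+ with CD69, where 1.85% and 1.9% were. There 2 had an unadjusted p under 0.05 for CD69 in CD27+ cells, with 0 called by DESeq2 and limma-voom, and 3 for CD27+ with CD69, with 1 called by DESeq2 and 0 by limma-voom. The Zfp36 call for CD69 held in all 17 alternative settings.

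The genes whose levels over the 24 libraries were most like those of a ligand were found among 8285 genes by Pearson's r on log2 CPM, and r is given as a description of libraries that share their sort. For Fasl these were Sytl3, a vesicle trafficking protein (0.939), Irf8, a transcription factor (0.938), and Pik3r1, a regulatory subunit of PI3 kinase (0.917). For Ltb they were Pilrb1, a paired immunoglobulin-like receptor (0.932), Cxcr3, a chemokine receptor (0.932), and Tcf7, which encodes the transcription factor TCF-1 (0.919). With each population's mean removed, r was 0.668 for Sytl3, 0.704 for Irf8 and 0.546 for Pik3r1 with Fasl, and 0.559, 0.728 and 0.601 for Pilrb1, Cxcr3 and Tcf7 with Ltb. Lta was most like Trgv2, Tcrg-C2 and Ikzf2 (0.840, 0.840 and 0.832), of which the first pair are segments of the T cell receptor gamma chain and Ikzf2 encodes the transcription factor Helios. With each population's mean removed these fell to 0.251, 0.231 and 0.392, so the likeness lay mostly between populations. Tnf was most like Rtcb (0.778), Ltb (0.770) and Pilrb1 (0.762), Tnfsf10 like Lysmd2 (0.814), Gpr18 (0.807) and 2810459M11Rik (0.8002), and Tnfsf8 like Gpr18 (0.791), Cd160 (0.759) and Tnfsf10 (0.753). Tnfsf14 had no gene above 0.682, which was Prmt6, followed by Dnajc18 (0.662) and Ssbp3 (0.644). Within populations r was 0.405 to 0.518 for the genes listed with Tnf and 0.405 to 0.602 for those with Tnfsf10. It was 0.438 to 0.512 for those with Tnfsf8 and 0.666 to 0.758 for those with Tnfsf14. Over the 21 pairs of tested ligands r ran from -0.740 to 0.770, and from -0.362 to 0.575 within populations.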

How the data were processed

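RNA was measured in 24 libraries of 100 sorted cells, made with SMART-Seq v4 and Nextera XT per the labels' protocols. This chemistry adds no molecular identifiers, so floors and intervals on counts cover counting error only. The authors deposited raw counts per gene, with GRCm38, HTSeq and Picard named in the submitters' processing notes; the aligner, annotation release and strand handling were not given in the sources used here. Genes without a symbol held 0.174% of counts.

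Groups follow the titles. Whether replicates are separate animals is not in the labels, and p-values measure only the spread between these libraries, which may be technical. Genes were kept by filterByExpr (minimum count 10), leaving 10536 genes and 7 of the 9 ligands, and scaled by TMM (factors 0.958 to 1.06). A quasi-likelihood F-test in edgeR 4.0.16 (R 4.3.3) was fitted to 4 group means over all 24 libraries, with Benjamini-Hochberg adjustment over all genes and a threshold of 0.05. Alternatives used DESeq2 1.42.0, limma 3.58.1, other scaling and filters, marker sums as covariates, a replicate block, and libraries left out. Levels per kb use the union of exons (GENCODE M21). Replicate libraries of a population differed by more than sampling noise (chi-square per degree of freedom 10.3 to 32.2 over 60 pairs). The members and lists were chosen with earlier results of these data known. Named genes are all members, up to 3 called genes with the smallest p per list and comparison, and the 3 genes most like each ligand with a mean of at least 10 CPM; Tnfsf4, Tnfsf15, Cd40lg, Cd70, Fas, Tnfrsf10b and Adam17 were added after their values were seen. Identity between the ligand proteins was not computed here.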

Additional observations from a re-analysis of the deposited data

Results flagged for a closer look

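Of 35 sets of 6 libraries, 1 for each ligand and population with any spread, 5 held a library whose gap to the next, as a part of the whole range, was above the 95% critical value of Dixon's test. Chance alone gives such a gap in about 1 in 20 sets of normally distributed values, a rate that does not hold for counts near the floor. Lta stood at 9.12 CPM in CD11b+CD69+ replicate 4, with the next library at 0.456 CPM, and at 45.4 CPM in CD11b+CD69- replicate 3, with the other 5 at 0. Tnfsf8 stood at 12.7 CPM in CD11b+CD69- replicate 6, with the other 5 at 0. Tnfsf11 stood at 4.93 CPM in CD27+CD69- replicate 1, with the next at 0.455 CPM, and at 10.4 CPM in CD11b+CD69+ replicate 1, with the next at 0.554 CPM. All 5 were the highest library of a population in which most or all of the others lay under the floor of 3 counts.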

How the results depend on the processing

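Over 17 alternative settings, 49 results of the 7 ligands gave 809 values, of which 731 kept their direction and their side of the threshold, 31 lost the threshold, 17 passed it and 30 changed sign. The counts of ligands called moved as follows. With the fibroblast and melanoma marker covariates, CD27+ minus CD11b+ without CD69 had 1 call (3 as reported), and CD27+CD69- minus CD11b+CD69+ had 0 (2 as reported); that last count was 1 with no filter, 1 with the macrophage covariate and 0 with CD27+CD69- held by replicate 5 alone. DESeq2 called 1 ligand for the difference between the CD69 differences. Leaving out 1 replicate gave 1 to 2 calls for CD27+ minus CD11b+ with CD69, 3 to 5 for CD27+CD69+ minus CD11b+CD69- and 1 to 2 for CD27+CD69- minus CD11b+CD69+. Those covariates lie almost wholly in CD27+CD69-, so they and that population cannot be told apart. The 2 settings on single CD27+CD69- libraries were chosen after seeing the data, and with replicate 5 alone that library is assumed to vary like the other groups.

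Changes of sign were these. For CD69 in CD27+ cells, Fasl ran from -0.083 without replicate 6 to 0.11 without replicate 1, and was -0.080 with the macrophage covariate, -0.033 without CD27+CD69- replicate 6 and -0.075 with replicate 5 alone; with the fibroblast and melanoma covariates Lta was -1.35 and Ltb -0.24. For CD69 in CD11b+ cells, Lta ran from -5.95 without replicate 4 to 4.98 without replicate 3, values that depend on the prior count; Tnfsf14 was -0.000722 with median-of-ratios scaling, -0.000767 with the 10 CPM filter, -0.000302 with replicate 5 alone, and from -0.50 without replicate 5 to 0.69 without replicate 6. For CD27+ with CD69, Tnfsf14 was 0.27 with limma-voom and from -0.39 without replicate 6 to 0.23 without replicate 5. For CD27+CD69+ minus CD11b+CD69-, Tnfsf14 was 0.90 with limma-voom, 0.15 with the block and from -0.27 without replicate 5 to 0.30 without replicate 6. For CD27+CD69- minus CD11b+CD69+, Tnf was -0.059 with replicate 5 alone, and Tnfsf8 was 0.050 with limma-voom and from -0.79 without replicate 1 to 0.43 without replicate 4. For CD27+ without CD69, Tnfsf8 was -0.72 with replicate 5 alone. For the difference between the CD69 differences, Tnf ran from -0.89 without replicate 3 to 0.22 without replicate 2, Lta from -3.54 without replicate 3 to 7.57 without replicate 4, and Tnfsf8 from -6.42 without replicate 6 to 0.21 without replicate 1, with 2.03 with replicate 5 alone. None of the 30 values that changed sign passed, and the cause was not tested.

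The replicate numbers gave no clear sign of pairing. Over 36 pairs of the same number r ran from -0.03 to 0.21, with 1 above 0.1, and 5 of 24 libraries correlated best with their own number. Such correlations cannot show that libraries of the same number come from separate sources, and the labels do not say what the numbers mark. With the replicate block 0 ligands were called for CD69 in CD27+ cells, 2 for CD69 in CD11b+ cells, 3 for CD27+ with CD69, 3 for CD27+ without CD69, 6 for CD27+CD69+ minus CD11b+CD69- and 2 for CD27+CD69- minus CD11b+CD69+. The added call was Lta, at 5.80 (edgeR adjusted p = 0.0200) and 5.01 (edgeR adjusted p = 0.0173). Over all genes, calls ranged from 0 to 405 (195 as reported) for CD69 in CD27+ cells, 183 to 483 (289) in CD11b+ cells, 115 to 316 (200) for CD27+ with CD69, 50 to 1933 (1304) without CD69, 0 to 1105 (652) for CD27+CD69- minus CD11b+CD69+ and 1 to 169 (61) for the difference between the CD69 differences. At a floor of 1.12 to 2.47 CPM, depth limits Tnfsf12 and the libraries at 0 counts of Tnfsf11, Lta and Tnfsf8; whether the 100 cells of a library limit them too was not tested.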
